A study of Mus musculus with 3 samples.

Results

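Imprinted growth genes are genes of which mainly the copy from a single parent is transcribed and which raise or restrain growth of the embryo and its membranes. Of the 31054 features counted, the 10 examined here were taken by symbol. The rule used no measured value, but it was set with earlier results of these data known. They were the growth factor gene Igf2 and the long non-coding RNA gene H19 of the same locus, the growth restrainers Cdkn1c, Phlda2 and Grb10, the Dlk1 and Meg3 pair, Peg3, Peg10 and Plagl1. All 10 were found as a single feature each, and all 10 passed the filter on low counts, as did 14532 features in all.

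The data were single-cell RNA counts of 3 wild-type (WT) male mouse embryos of the strain C57BL/6 x 129 SvEv, with 1 library per embryo and no treatment or mutant. The embryos were collected at E8.0 with 0 to 1 somites, although a label field allows up to 2. The submitters removed extraembryonic tissue before the cells were dissociated, so the extraembryonic cells here are those that stayed with the embryo, and how many were lost is unknown. Values for embryos 1, 2 and 3 are given in that order throughout.

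In an imprinted locus, DNA methylation set in the egg or the sperm marks CpG sites, and the mark decides from which parent's copy a gene is read. Genes of a locus are often expressed from opposite parental copies, as are Igf2 (paternal) and H19 (maternal), which lie beside each other, and Dlk1 (paternal) and Meg3 (maternal). Cdkn1c and Phlda2, both maternally expressed, share a further domain of the same chromosome. These genes are best known in placenta, yolk sac and mesoderm, where paternally expressed members tend to promote growth and maternally expressed members to hold it back. The counts used here do not tell parental copies apart.

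By the GENCODE annotation of GRCm38, Igf2 (7:142650766-142666816) and H19 (7:142575529-142578143, a lincRNA gene) were both on the minus strand with 72.6 kb between them. Cdkn1c (7:143458339-143461050) and Phlda2 (7:143501545-143503150) were on the same strand 40.5 kb apart. Dlk1 (12:109452823-109463336) and Meg3 (12:109541001-109571726, a lincRNA gene) were on the plus strand with 77.7 kb between them. The other members were Peg3 (7:6703892-6730431), Peg10 (6:4747306-4760517), Grb10 (11:11930508-12038683) and Plagl1 (10:13060504-13131694).

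The counts of Igf2 were limited by its annotation. Gm49394, a gene model that is also a feature of the count table, runs on the same strand and holds 3596 of the 5723 exon bases of Igf2 (62.8%). It holds 3284 of the 3287 bases of the last Igf2 exon (7:142650766-142654052), which is the part that a 3′ library mainly reads. Cell Ranger, the counting program, does not count a read that falls in exons of several genes. Over the kept cells Igf2 had 2380 UMIs and Gm49394 had 92. Unique molecular identifiers (UMIs) mark single captured molecules, so each UMI is 1 molecule. Levels of Igf2 are therefore uncertain, and differences of Igf2 between lineages assume that the share of its reads left out was alike in them, which was not tested.

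The sequence before the transcript start is shown for Dlk1 and Meg3, a pair whose ratio was higher in extraembryonic than embryonic cells of both germ layers (values further down). Promoter entries were found in RefSeq for 7 of the 10 members (GRCm38.p6). Each line holds the 250 bases before the start, 5′ to 3′ on the plus strand of chromosome 12, in lower case with every CpG (the letters CG, the same on both strands) in capitals. The Dlk1 stretch is chr12:109452573-109452822 and the Meg3 stretch, that of the start nearest to the annotated gene start, is chr12:109540746-109540995.
Dlk1: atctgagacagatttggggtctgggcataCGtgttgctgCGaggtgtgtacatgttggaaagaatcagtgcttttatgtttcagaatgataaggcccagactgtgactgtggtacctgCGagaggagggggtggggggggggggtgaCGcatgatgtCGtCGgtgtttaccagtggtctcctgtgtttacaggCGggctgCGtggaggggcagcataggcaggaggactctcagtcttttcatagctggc
Meg3: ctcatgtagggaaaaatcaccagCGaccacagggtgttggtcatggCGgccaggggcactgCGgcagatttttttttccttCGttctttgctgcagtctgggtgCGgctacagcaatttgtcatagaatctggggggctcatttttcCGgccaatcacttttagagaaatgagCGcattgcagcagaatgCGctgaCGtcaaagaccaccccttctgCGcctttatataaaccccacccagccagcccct
The Dlk1 stretch held 8 CpG sites and the Meg3 stretch shown 10. RefSeq held a further Meg3 start, and the stretch before it (chr12:109545148-109545397, not shown) had 0. These stand against a median of 6 over 32851 promoter stretches of this length. At least 8 were found in 43.0% of them and at least 10 in 37.8%.

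The 3 libraries held 149341900 to 207961733 UMIs in 6579 to 8621 barcodes, of which 21595 of 23533 were kept. The median kept cell held between 14615 and 27635 UMIs, embryo 1 being the deepest. Libraries shared 18 to 22 barcode sequences with each other. Each kept cell was placed in a lineage by UMIs of marker genes, none of them a member, and 15987 cells (74.0%) met the limit for 1 of 15 lineages. Lineages are called X-like, since they rest on these markers alone. Markers of the own list were among the 10 genes of highest fold in every lineage, in primordial-germ-cell-like cells 1 marker (Dppa3) and elsewhere 3 to 7, and a marker of another list stood there for extraembryonic-mesenchyme-like cells (Tnnt2) and axial-mesoderm-like cells (Noto). Cells were picked by these same markers, and germ-cell-like cells also had to hold a Dppa3 UMI. Own markers at the top are thus no check of the gates. Erythroid-like cells were 2, 876 and 304 in number, so embryo 1 gave no erythroid-like sum, and all values of that lineage have n = 2. The trophoblast markers Tpbpa, Prl3d1 and Prl2c2 were at 0 UMIs in the kept cells, Elf5 was at 173, Gcm1 at 43 and Plac1 at 6102. Of the decidua markers, Prl8a2 was at 0, Pgr at 1317 and Xist at 70, in 70 cells (0.32% of those kept). Over all kept cells of an embryo, in CPM (UMIs of the gene scaled to a common total, mean ± SD, n = 3), Igf2 was at 4.88 ± 1.49, H19 at 489 ± 109, Cdkn1c at 210.4 ± 31.3, Phlda2 at 656 ± 62.8 and Grb10 at 189.6 ± 23.8. Dlk1 was at 76.9 ± 15.3, Meg3 at 519 ± 47.2, Peg3 at 531 ± 90.0, Peg10 at 90.8 ± 12.5 and Plagl1 at 8.16 ± 0.94. Levels of different genes are not compared, since 3′ capture differs between genes.

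UMIs of the cells of a lineage were summed per embryo, and a level is given in CPM of that sum. Fold changes are log2 values fitted with edgeR on these sums, with adjusted p-values over all 14532 genes tested. The fits also scaled each sum by a TMM factor, a correction of its total that the CPM levels leave out. A fold change can therefore differ from the ratio of the CPM levels given beside it. The embryo was the replicate. The plot of levels by lineage shows every sum.

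**Figure D1:**
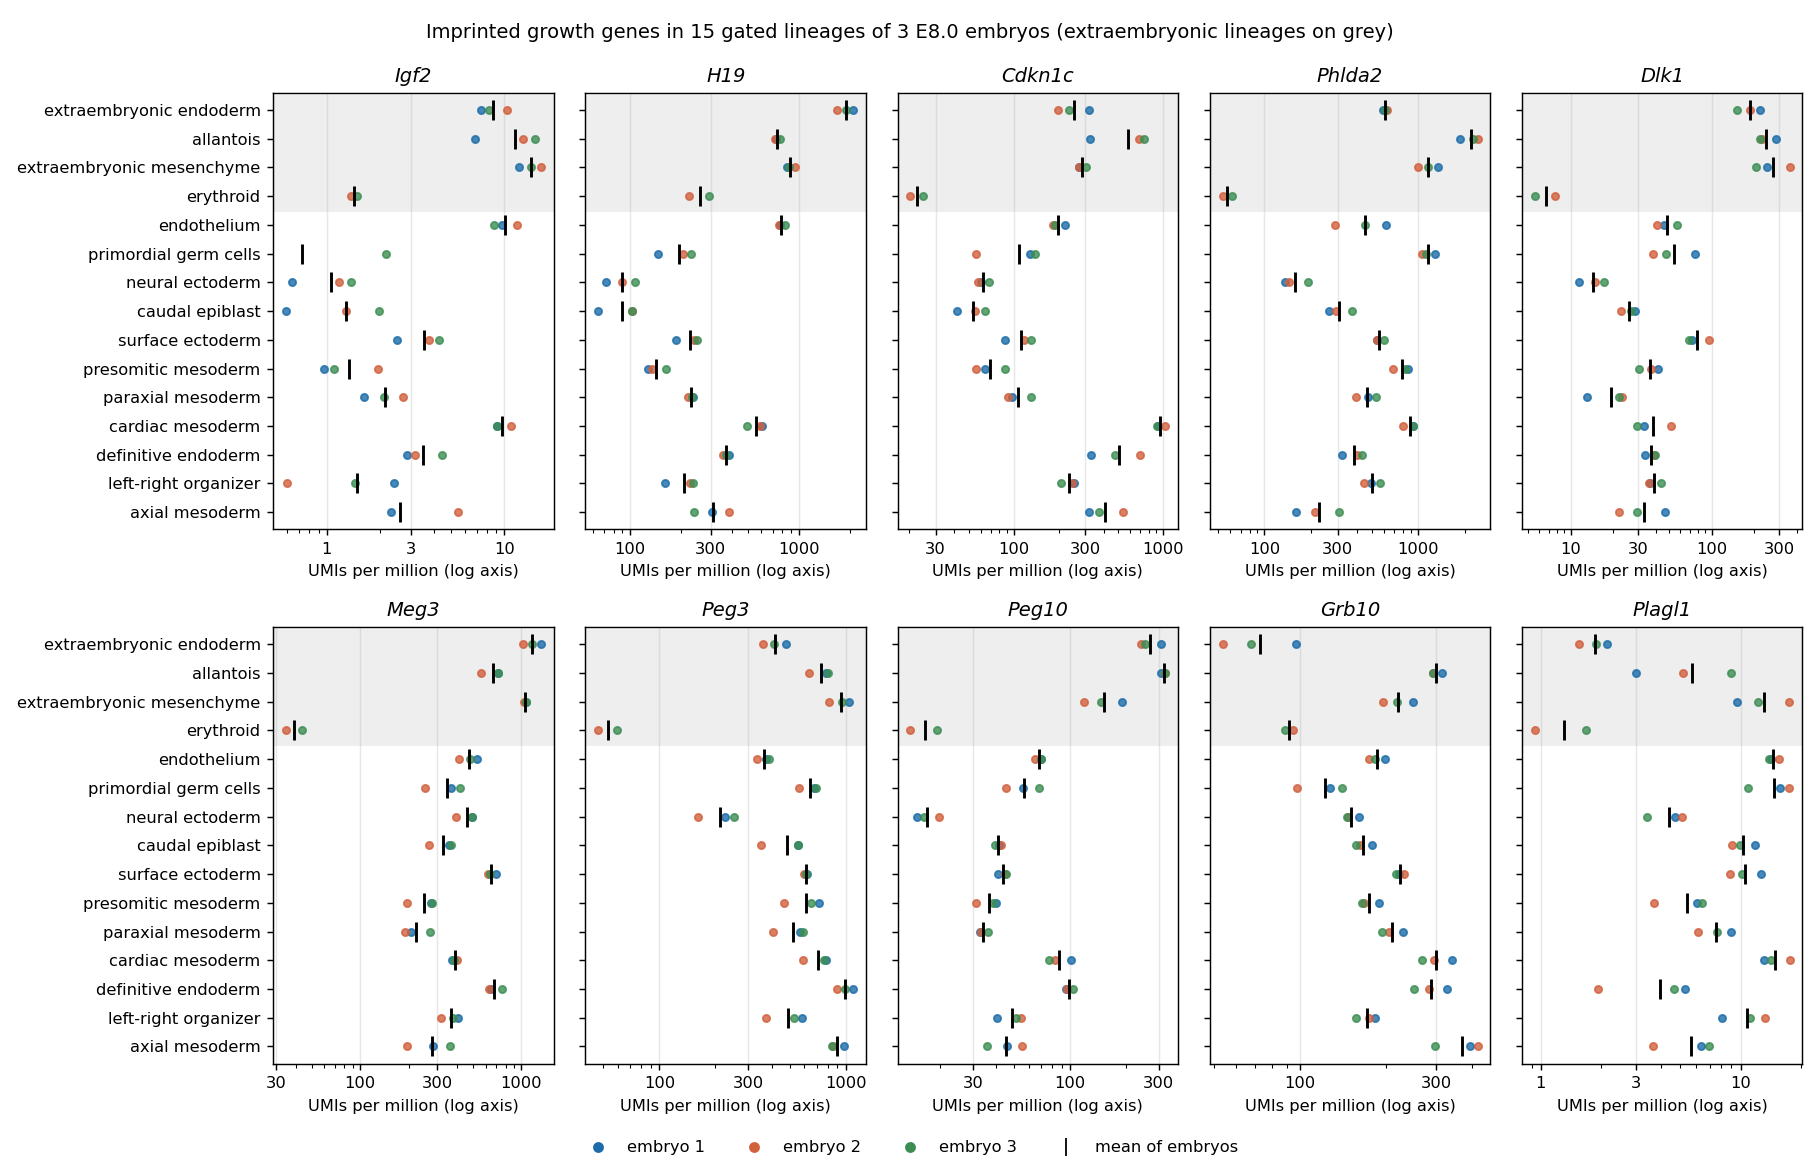
Levels of the 10 genes in 15 gated lineages, in CPM on a log axis. Each point is the sum of 1 embryo and each black bar the mean. The 4 extraembryonic lineages are on grey, erythroid-like sums came from embryos 2 and 3 only, and the 3 sums with 0 UMIs of Igf2 are not drawn. H19 was highest in extraembryonic endoderm, Cdkn1c in cardiac mesoderm and Phlda2 in allantois.

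Igf2 encodes a secreted growth factor that acts through the type 1 IGF receptor. Its counts were highest in extraembryonic-mesenchyme-like sums, at 12.1, 16 and 14 CPM. Allantois-like sums held 6.82, 12.8 and 14.9 CPM, endothelium-like sums 9.66, 11.8 and 8.68, cardiac-mesoderm-like sums 9.09, 10.9 and 9.04, and extraembryonic-endoderm-like sums 7.38, 10.4 and 8.23. These lineages overlapped in order, and these 5 lay above the next one, surface ectoderm, with 2.50, 3.75 and 4.28 CPM. That gap was the only place in the order of 15 lineages where neighbours did not overlap. Primordial-germ-cell-like sums held 0, 0 and 2 UMIs of Igf2, where a count of 0 allows up to 3.36 CPM in embryo 1 and 10.4 in embryo 2, counting error only.

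H19, a non-coding RNA whose locus limits growth, was highest in extraembryonic-endoderm-like sums, at 2099, 1694 and 1910 CPM (1901 ± 203, SD, n = 3). Every embryo was above all other lineages there. Extraembryonic-mesenchyme-like sums followed at 848, 954 and 874 CPM, then endothelium-like sums at 773, 759 and 834 and allantois-like sums at 734, 718 and 776. At the low end, neural-ectoderm-like sums had 72.1, 90.1 and 107 CPM and caudal-epiblast-like sums 64.8, 103 and 102, and these lineages overlapped. The highest mean was 21.2 times the lowest.

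In erythroid-like cells H19 was at 224 and 294 CPM in embryos 2 and 3. Its log2 fold change against the mean of the other lineages was 0.00, with no call, whereas Meg3, Peg3, Phlda2, Cdkn1c, Dlk1, Plagl1, Peg10 and Grb10 were all called lower, having log2 fold changes of -3.23, -3.10, -2.95, -2.79, -2.55, -2.34, -1.73 and -0.75, against 30.9% of all genes called lower in that lineage. Leaving out an embryo or adding the embryo as a block moved the H19 value to between -0.18 and 0.13, with no call. After each cell was thinned to 5000 UMIs, 63.6% ± 3.55 (SD, n = 2) of erythroid-like cells had an H19 UMI, beside 25.0% ± 5.63 (n = 3) of neural-ectoderm-like cells. Without thinning and with the cells of all embryos pooled, Ttr, a marker of extraembryonic endoderm, had a UMI in 29.0% of erythroid-like cells. In neural-ectoderm-like cells, which were deeper (median 21684 against 15264 UMIs), it had a UMI in 30.3%. These Ttr shares are therefore not on the scale of the thinned H19 shares. Suppose that all UMIs of the 11 extraembryonic endoderm markers in erythroid-like sums had brought H19 along at the ratio seen in extraembryonic endoderm. That would be at most 11.7% and 10.9% of the H19 UMIs of embryos 2 and 3. This bounds only H19 from extraembryonic endoderm. H19 carried over from other lineages, such as extraembryonic mesenchyme, endothelium and allantois, was not bounded. In neural-ectoderm-like sums the same bound was 24.3%, 27.2% and 21.7%. It was higher elsewhere. In definitive-endoderm-like sums it was 69.0%, 64.9% and 84.7% for H19 and 83.7%, 64.2% and 61.7% for Dlk1. Outside endoderm its median over sums was 11.1% for H19, 10.2% for Dlk1, 10.0% for Peg10 and under 6% for each other member. Its highest values there were 69.6% for H19 (germ-cell-like sum of embryo 2), 51.6% for Igf2 (left-right-organizer-like sum of embryo 2), and 45.8% for Meg3 and 44.8% for Dlk1 (erythroid-like sums). No level, fold change or share given here was corrected for this, and how much of the bound was free RNA was not tested.

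Cdkn1c encodes p57, an inhibitor of cyclin-dependent kinases that lets cells leave the cycle. Cardiac-mesoderm-like sums held 925, 1032 and 902 CPM (953 ± 69.6, SD, n = 3), above every other lineage in every embryo. Against the mean of the other lineages this was a log2 fold change of 2.66. Allantois-like sums came next but were uneven, at 325, 686 and 738 CPM, with embryo 1 well below the others. Definitive-endoderm-like sums had 329, 702 and 477 and axial-mesoderm-like sums 319, 536 and 372, all overlapping. Levels were low in presomitic mesoderm (64.1, 55.6 and 87.5), neural ectoderm (60.7, 57.8 and 68.7), caudal epiblast (42.0, 54.7 and 64.5) and erythroid cells (20.4 and 24.8). The mean of the highest lineage was 42.2 times that of the lowest, the widest range among the 10 genes.

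Phlda2, a pleckstrin-homology protein that restrains placental growth, had its highest level in allantois-like sums, at 1880, 2428 and 2284 CPM (2198 ± 284). No other sum of any lineage reached these values. Extraembryonic-mesenchyme-like sums held 1343, 992 and 1156 CPM and primordial-germ-cell-like sums 1280, 1065 and 1129, which overlapped. Germ-cell-like sums rested on 99 cells in all. Embryonic mesoderm was uneven for Phlda2, with 858, 688 and 817 CPM in presomitic-mesoderm-like sums, 470, 396 and 530 in paraxial-mesoderm-like sums and 160, 214 and 304 in axial-mesoderm-like sums. Cardiac-mesoderm-like sums held 6261, 4936 and 4016 Phlda2 UMIs among 6817426, 6247628 and 4315181 UMIs of all genes. In each embryo that was a higher share than in the presomitic-mesoderm-like sum.

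Grb10 encodes an adaptor protein that dampens insulin and IGF receptor signalling. It had the narrowest range, the highest mean being 5.09 times the lowest. Axial-mesoderm-like sums held 393, 418 and 298 CPM, cardiac-mesoderm-like sums 339, 294 and 267, allantois-like sums 314, 293 and 293, and definitive-endoderm-like sums 327, 284 and 251. These overlapped. Extraembryonic-endoderm-like sums were lowest, at 96.8, 53.7 and 67.3 CPM, overlapping with the erythroid-like sums (94.7 and 88.7). Grb10 and Plagl1 were the members called lower in extraembryonic-endoderm-like cells than in the mean of the other lineages, where they fell by 1.26 and 1.81 (log2) and 32.9% of all genes were called lower.

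Dlk1, a membrane protein related to Notch ligands, was highest in the extraembryonic lineages other than the erythroid one. Extraembryonic-mesenchyme-like sums held 245, 356 and 207 CPM, allantois-like sums 284, 225 and 219, and extraembryonic-endoderm-like sums 220, 186 and 150. These overlapped with each other, and all 9 values were above the highest of any other lineage, 95.2 CPM in the surface-ectoderm-like sum of embryo 2. Surface-ectoderm-like sums (72.2, 95.2 and 68.7) were the highest embryonic ones, and neural-ectoderm-like sums (11.5, 14.8 and 17.2) the lowest.

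Meg3, the non-coding RNA of the same locus, was highest in extraembryonic-endoderm-like sums (1321, 1022 and 1164 CPM) and extraembryonic-mesenchyme-like sums (1072, 1032 and 1070), which overlapped. Among embryonic lineages it ran from 648, 631 and 756 CPM in definitive-endoderm-like sums through 491, 394 and 496 in neural-ectoderm-like sums to 280 ± 82.9 (SD, n = 3) in axial, 195 to 277 in presomitic and 223 ± 42.1 in paraxial mesoderm. In neural ectoderm Dlk1 was called lower than in the mean of the other lineages, with a log2 fold change of -1.81, while Meg3 was 0.26 higher and not called (0.25 and called with the embryo as a block).

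Peg3, a zinc-finger protein gene, was highest in definitive-endoderm-like sums, at 1094, 896 and 987 CPM. Extraembryonic-mesenchyme-like sums (1041, 811 and 957) and axial-mesoderm-like sums (979, 858 and 846) overlapped with these. It was low in neural-ectoderm-like sums, at 224, 161 and 253, and in erythroid-like sums, at 47.0 and 59.4.

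Peg10, a gene derived from a retrotransposon that placental development needs, was highest in allantois-like sums (310, 325 and 325 CPM) and extraembryonic-endoderm-like sums (310, 242 and 252), which overlapped at the top of the latter. Extraembryonic-mesenchyme-like sums came next at 191, 119 and 147 and lay above every embryonic sum. Neural-ectoderm-like sums (14.9, 19.7 and 16.4) and erythroid-like sums (13.9 and 19.2) were the lowest.

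Plagl1, a zinc-finger transcription factor gene, had few counts everywhere. Cardiac-mesoderm-like sums held 13.1, 17.6 and 14.1 CPM, germ-cell-like sums 15.7, 17.4 and 10.8, endothelium-like sums 14.1, 15.5 and 13.9, and extraembryonic-mesenchyme-like sums 9.64, 17.5 and 12.3, all overlapping. Extraembryonic-endoderm-like sums had 2.14, 1.55 and 1.88 CPM and erythroid-like sums 0.93 and 1.68. Over all members, neighbours in the order of lineages were apart in 1 to 5 of 14 steps, so most of each order is not resolved by 3 embryos.

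Over the 15 lineages, 104 of 150 tests of a member against the mean of the other lineages passed (69.3%), where the share of all genes that passed ran from 14.5% to 70.2% between lineages with a median of 29.7%. Members were mainly higher in the mesoderm of the membranes and in the heart. Extraembryonic-mesenchyme-like cells had 10 members called higher and 0 lower, beside 16.8% and 12.6% of all genes. The Grb10 call there was lost without embryo 1 (0.22) or embryo 3 (0.25). In allantois-like cells 9 were higher and 0 lower (16.6% and 13.6% of all genes), Plagl1 not being called. Cardiac-mesoderm-like cells had 8 higher and 0 lower (11.7% and 8.59%). Extraembryonic-endoderm-like cells had 7 higher and 2 lower (37.2% and 32.9%), and definitive-endoderm-like cells 5 higher and 3 lower (25.6% and 20.5%). All 3 lower calls in definitive endoderm were lost on leaving out an embryo, Dlk1 without any of the 3 (-0.30 to -0.50), Phlda2 without embryo 1 (-0.31) and Plagl1 without embryo 2 (-0.58), so that 1 of the 3, Phlda2, was left without embryo 2. Endothelium-like cells had 4 higher and 1 lower (24.1% and 21.7%). Of these, the Meg3 call was lost without embryo 1, and the lower call, Peg3, without embryo 1 or embryo 3.

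Members were mainly lower in neural, caudal and presomitic or paraxial cells, and in erythroid ones. Neural-ectoderm-like cells had 0 members called higher and 9 lower (19.5% and 17% of all genes), Meg3 not being called. Of these 9, Igf2 (-1.54) and Plagl1 (-0.44) were not called without embryo 3. In erythroid-like cells 0 were higher and 8 lower (31.5% and 30.9%). Caudal-epiblast-like cells had 1 higher (Plagl1, by 0.65) and 6 lower (16.3% and 13.5%), presomitic-mesoderm-like cells 2 higher (Peg3, by 0.32, and Phlda2, by 0.73) and 5 lower (14.2% and 11.9%), and paraxial-mesoderm-like cells 0 higher and 5 lower (14.2% and 11.9%). The split was more even in surface-ectoderm-like cells, with 4 higher and 3 lower (12% and 8.5%), and in axial-mesoderm-like cells, with 3 and 3 (10.4% and 8.22%). In surface ectoderm the calls of Grb10 (without embryo 2 or 3), Plagl1 (without embryo 1) and Cdkn1c (without embryo 3) were lost. In axial mesoderm the Peg10 call was lost without embryo 3. Germ-cell-like cells had 1 higher (Phlda2, by 1.28) and 2 lower (7.44% and 7.05%). In left-right-organizer-like cells, the ciliated cells that the study set out to describe, 0 were higher and 3 lower (21.1% and 15.1%), namely H19, Peg10 and Grb10, with log2 fold changes of -0.79, -0.48 and -0.27. The Grb10 call there was lost when any embryo was left out (adjusted p = 0.080, 0.055 and 0.11). Of the 104 calls, 18 were lost without 1 of the embryos, among them Plagl1 in caudal epiblast without embryo 1 and Peg3 in presomitic mesoderm without embryo 1 or 3. The lower calls of Igf2 in caudal epiblast (-1.54) and presomitic mesoderm (-0.96) were lost without embryo 3. That of Cdkn1c in paraxial mesoderm (-0.63) was lost without embryo 2.

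The first comparison asked whether the genes differed between extraembryonic and embryonic lineages, as the mean of 4 extraembryonic lineages against the mean of 9 embryonic ones. Endothelium and germ cells, which both can hold, were in neither mean. In the extraembryonic lineages 6 members were higher (H19, Igf2, Dlk1, Peg10, Phlda2 and Meg3), 3 were lower (Plagl1, Peg3 and Grb10), and Cdkn1c was not called. Of all genes 66.2% were called, 33.8% higher and 32.4% lower. H19 was higher by 2.00 ± 0.07 (log2 fold change ± SE, edgeR adjusted p = 2.7e-25), Igf2 by 1.76 ± 0.18 (adjusted p = 6.7e-11), Dlk1 by 1.73 ± 0.11 (adjusted p = 2.1e-16) and Peg10 by 1.58 ± 0.06 (adjusted p = 1.3e-23). Phlda2 was higher by 0.55 ± 0.08 (adjusted p = 1.9e-07) and Meg3 by 0.33 ± 0.07 (adjusted p = 1.1e-04), and Cdkn1c had 0.19 ± 0.11 (adjusted p = 0.13). Peg3 fell by 0.54 ± 0.08 (adjusted p = 7.9e-08), Grb10 by 0.44 ± 0.06 (adjusted p = 8.5e-09) and Plagl1 by 0.91 ± 0.15 (adjusted p = 1.5e-06). The median over the members was 0.44 and over all genes 0.00.

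This comparison turned on the erythroid-like sums. Without them Peg3 changed direction, to 0.30 higher (adjusted p = 8.2e-04), and Cdkn1c was called at 1.11. Dlk1 moved to 2.91, Peg10 to 2.48, Phlda2 to 1.57 and Meg3 to 1.41, while Grb10 and Plagl1 stayed lower, at -0.29 and -0.44. Keeping genes of low counts also gave a call for Cdkn1c (0.18, adjusted p = 1.8e-04). The call of Meg3 was lost without the cells of highest doublet scores (0.10, adjusted p = 0.25). The split over all genes depended on the scaling: 4909 higher and 4709 lower with TMM factors became 3205 and 6356 with library totals, and the median of all genes moved from 0.00 to -0.16. No member changed direction with it.

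**Figure D2:**
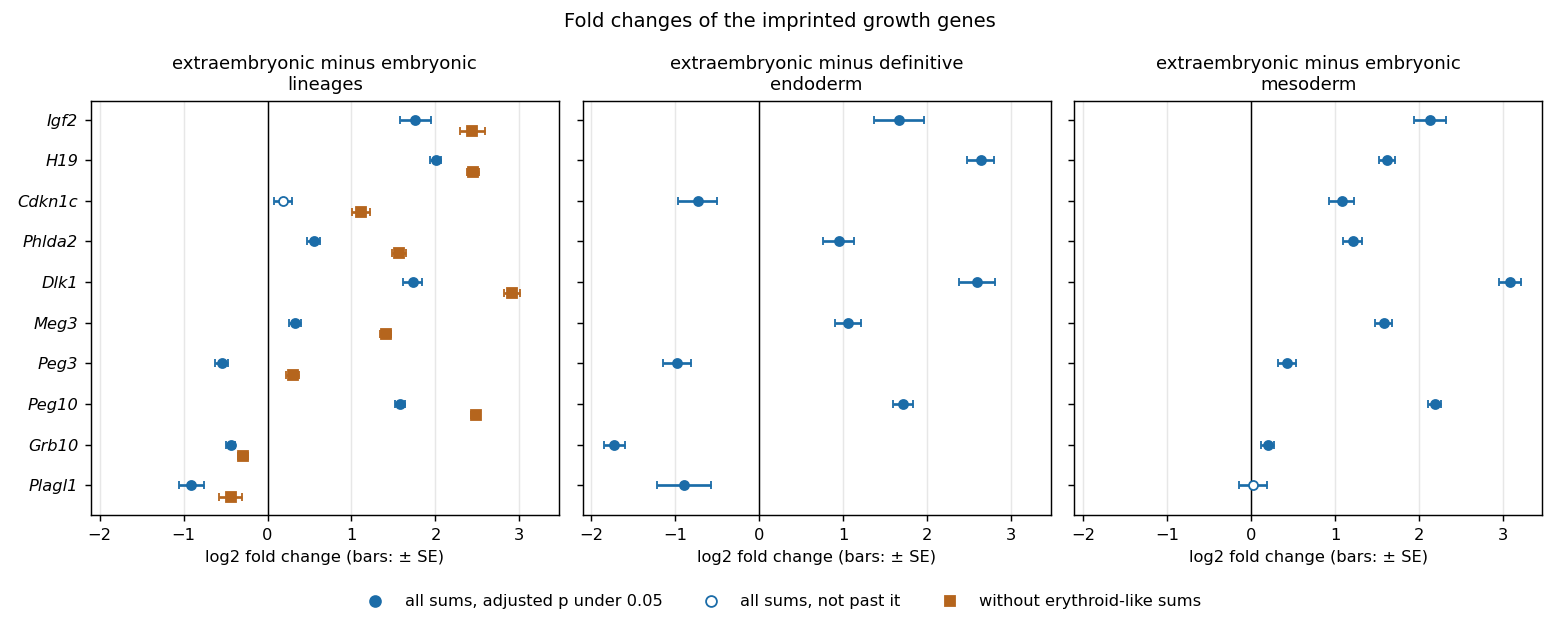
Log2 fold changes of the 10 genes (points) with standard errors (bars) in 3 comparisons. Filled circles passed an adjusted p of 0.05 and open ones did not, and squares leave out the erythroid-like sums. Dlk1, Peg10, Igf2, H19, Phlda2 and Meg3 were to the right of 0 in every panel, and Grb10 was furthest left in the endoderm panel.

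The second comparison set the endoderm of the membranes against that of the embryo proper. Extraembryonic (visceral) endoderm nourishes the embryo and definitive endoderm forms the gut tube. All 10 members passed, beside 60.5% of all genes (31.9% higher and 28.7% lower). H19 was higher in extraembryonic-endoderm-like cells by 2.64 ± 0.16 (edgeR adjusted p = 5.6e-17), at 1901 ± 203 against 370 ± 16.7 CPM. Dlk1 was higher by 2.59 ± 0.21 (adjusted p = 2.1e-13), at 185 ± 35.1 against 37.4 ± 3.43 CPM, Peg10 by 1.71 ± 0.12 (adjusted p = 3.7e-15) and Igf2 by 1.66 ± 0.30 (adjusted p = 6.7e-06). The definitive-endoderm levels of H19 and Dlk1 carry the bounds of up to 84.7% and 83.7% given above. Meg3 and Phlda2 were higher by 1.06 ± 0.16 and 0.94 ± 0.18. Grb10 fell by 1.73 ± 0.13 (adjusted p = 5.2e-15), at 72.6 ± 22.0 against 287 ± 38.3 CPM, and Peg3 fell by 0.98 ± 0.17 (adjusted p = 2.6e-06).

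Cdkn1c fell by 0.73 ± 0.23 (adjusted p = 0.0062) in that comparison and Plagl1 by 0.90 ± 0.32 (adjusted p = 0.015), and both calls were lost when single embryos were left out. Cdkn1c was at 320, 199 and 234 CPM in extraembryonic-endoderm-like sums and 329, 702 and 477 in definitive-endoderm-like sums, so embryo 1 showed hardly any difference. Without embryo 2 its value was -0.29 (adjusted p = 0.41) and without embryo 3 -0.74 (adjusted p = 0.054). The Plagl1 call was lost without embryo 1 (-0.62, adjusted p = 0.18) or embryo 3 (-0.87, adjusted p = 0.093). Over all genes, 4631 higher and 4165 lower became 3170 and 5908 with library totals, which moved the median from 0.01 to -0.26, with every member on the same side of 0. The median over the members was 1.00.

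The third comparison set extraembryonic mesoderm (the mean of allantois-like and extraembryonic-mesenchyme-like cells) against embryonic mesoderm (the mean of presomitic, paraxial and cardiac mesoderm). There 9 members were higher, 0 were lower, and Plagl1 was not called (0.02 ± 0.17, adjusted p = 0.95), beside 34.7% of all genes called, 18.1% higher and 16.6% lower. Dlk1 showed the largest difference of the members, 3.08 ± 0.13 (edgeR adjusted p = 5.2e-21). Peg10 was higher by 2.19 ± 0.08 (adjusted p = 3.8e-23), Igf2 by 2.13 ± 0.19 (adjusted p = 7.0e-12), H19 by 1.62 ± 0.10 (adjusted p = 1.6e-16) and Meg3 by 1.58 ± 0.10 (adjusted p = 4.0e-16). Phlda2 had 1.21 ± 0.12 (adjusted p = 3.5e-11) and Cdkn1c 1.08 ± 0.15 (adjusted p = 1.8e-07). Cardiac-mesoderm-like sums alone held more Cdkn1c than either extraembryonic mesoderm. Peg3 was higher by 0.43 ± 0.11 (adjusted p = 0.0013) and Grb10 by 0.20 ± 0.08 (adjusted p = 0.046). The Grb10 call was lost without embryo 2 (0.21, adjusted p = 0.097), without embryo 3 (0.17, adjusted p = 0.27) and without the highest doublet scores (0.22, adjusted p = 0.059). The median over the members was 1.39 and over all genes -0.02.

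The fold changes in endoderm and in mesoderm differed from each other for 7 members by a test of the difference itself, beside 51.2% of all genes. Endoderm less mesoderm was above 0 for H19 (27.2% of all genes) and below 0 for 6 members, Grb10, Cdkn1c, Peg3, Plagl1, Meg3 and Peg10 (24.0%). Grb10, Cdkn1c and Peg3 were lower in extraembryonic endoderm and higher in extraembryonic mesoderm, each against its embryonic counterpart. The Cdkn1c call in endoderm and the Grb10 call in mesoderm were among those lost without single embryos. Over all genes 3948 were above and 3491 below 0, which became 2500 and 5240 with library totals.

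Partners of a shared locus were then compared by the log2 ratio of their UMIs in each sum, with 0.5 added to both. Only changes of a ratio between lineages are read, since capture differs between genes. Dlk1 to Meg3 was higher in extraembryonic than embryonic cells in both germ layers and in 3 of 3 embryos. In extraembryonic-endoderm-like sums it was -2.59, -2.46 and -2.96 and in definitive-endoderm-like sums -4.27, -4.01 and -4.25, a difference of 1.51 ± 0.20 (SD, n = 3, exact permutation p = 0.10, two-sided). Extraembryonic mesoderm exceeded embryonic mesoderm by 1.5 ± 0.15 (n = 3, exact permutation p = 0.10). With 3 sums against 3 this test cannot give a p under 0.10, and it ignores that each embryo gave both sums. Swapping the sums only within embryos, a pairing added after the data were seen, gave an exact permutation p = 0.25 for each of the 6 partner comparisons, the smallest that 3 pairs allow. The ratio was lowest in neural-ectoderm-like sums, at -5.42, -4.73 and -4.85. Its mean was highest in allantois-like sums, at -1.33, -1.32 and -1.71, which overlapped with extraembryonic-mesenchyme-like sums (-2.13, -1.54 and -2.37).

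Cdkn1c to Phlda2 was lower in extraembryonic than definitive endoderm in 3 of 3 embryos. It was -0.89, -1.65 and -1.37 in extraembryonic-endoderm-like sums and 0.05, 0.81 and 0.14 in definitive-endoderm-like sums, a difference of -1.64 ± 0.76 (n = 3, exact permutation p = 0.10). Between extraembryonic and embryonic mesoderm it was -0.16 ± 0.22 (n = 3, exact permutation p = 0.60). Within embryonic mesoderm the ratio ran from -3.74, -3.63 and -3.22 in presomitic-mesoderm-like sums through -2.27, -2.11 and -2.02 in paraxial-mesoderm-like sums to 0.01, 0.39 and -0.05 in cardiac-mesoderm-like sums, without overlap. Axial-mesoderm-like sums had the highest mean, at 0.99, 1.32 and 0.29, but overlapped with cardiac-mesoderm-like and definitive-endoderm-like sums.

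Igf2 to H19 was lower in extraembryonic-endoderm-like sums (-8.14, -7.35 and -7.85) than in definitive-endoderm-like sums (-7.07, -6.79 and -6.33), the difference being -1.05 ± 0.48 (n = 3, exact permutation p = 0.10). In mesoderm the difference was 0.41 ± 0.28 (n = 3, exact permutation p = 0.20). These ratios carry the uncertain counts of Igf2, and sums with few Igf2 UMIs were unsteady, as in axial mesoderm (-6.90, -6.02 and -8.93, where embryo 3 had 0 Igf2 UMIs).

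**Figure D3:**
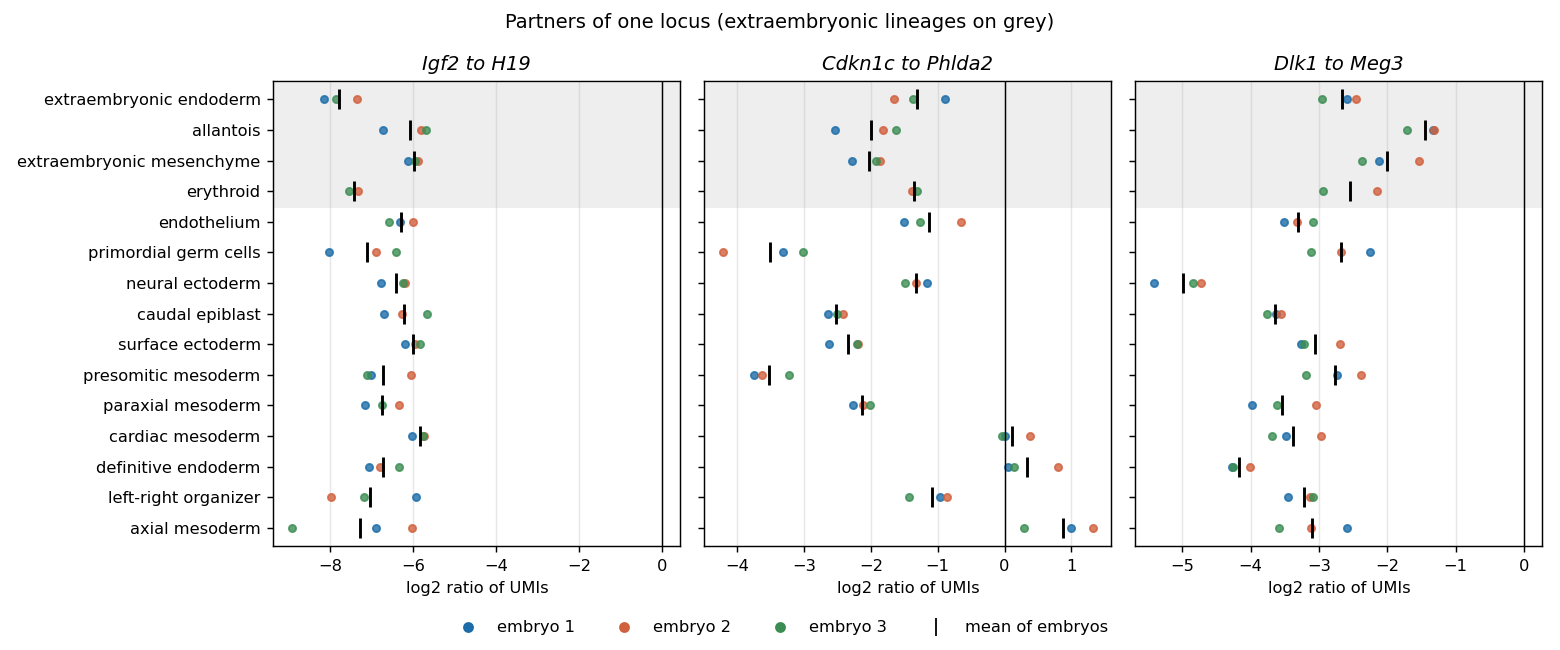
Log2 ratio of UMIs of partners of a shared locus, by lineage. Points are embryos and black bars means, with extraembryonic lineages on grey. Dlk1 to Meg3 was lowest in neural ectoderm and had its highest mean in allantois, which overlapped with extraembryonic mesenchyme. Cdkn1c to Phlda2 had its highest means in axial mesoderm, definitive endoderm and cardiac mesoderm.

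The share of cells with at least 1 UMI was computed with every cell thinned to 5000 UMIs, since embryos and lineages differed in depth. The shares fell with thinning, the median over members of the share in the highest lineage going from 99.1% to 89.4%. H19 was found in 99.8% ± 0.13 (SD, n = 3) of extraembryonic-endoderm-like cells, Phlda2 in 99.4% ± 0.49 of allantois-like cells, Meg3 in 98.2% ± 1.20 of extraembryonic-mesenchyme-like cells and Cdkn1c in 95.2% ± 0.89 of cardiac-mesoderm-like cells. Dlk1 reached 74.0% ± 6.27 in extraembryonic-mesenchyme-like cells and Peg10 77.1% ± 0.55 in allantois-like cells. Igf2 and Plagl1 stayed at or below 9.10% and 7.63% in every lineage. Erythroid-like cells gave the lowest shares for Cdkn1c (8.52%), Dlk1 (2.87%), Meg3 (10.3%), Peg3 (15.6%), Phlda2 (14.8%) and Plagl1 (0.23%). Thinning left out 77 cells that held fewer UMIs. The median depth before thinning ran from 15264 UMIs in erythroid-like to 24275 in left-right-organizer-like cells.

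**Figure D4:**
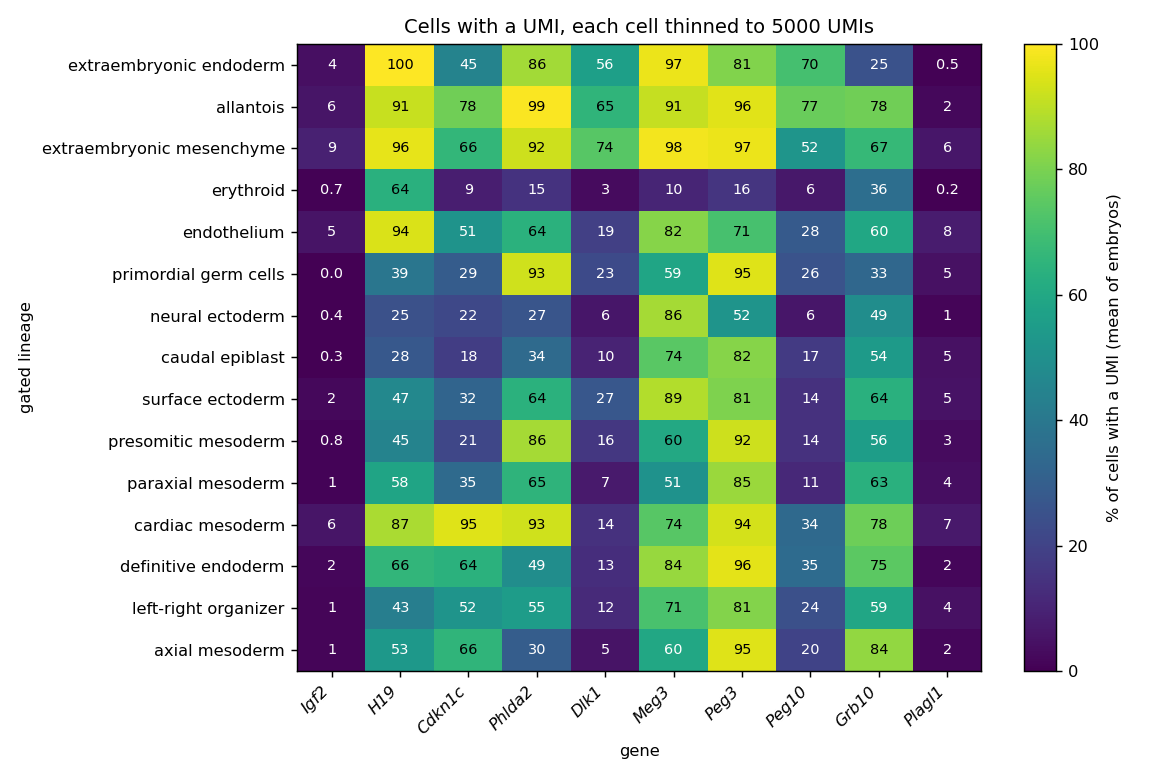
Percent of cells with at least 1 UMI of each gene (columns) in each gated lineage (rows), with each cell thinned to 5000 UMIs, as the mean over embryos. H19 stood at 63.6% in erythroid-like cells, where most other members were under 16%, and Cdkn1c was highest in cardiac mesoderm at 95.2%.

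The share of cells holding both partners was set against the product of their shares. The median ratio over lineages was 1.07 for Dlk1 with Meg3 (14 lineages, 0.72 to 1.38), 1.07 for Cdkn1c with Phlda2 (14 lineages, 0.97 to 1.51) and 1.06 for Igf2 with H19 (5 lineages, 1.00 to 1.09). For Cdkn1c with Phlda2 it was 1.51 ± 0.11 (SD, n = 3) in caudal-epiblast-like and 1.37 ± 0.17 in neural-ectoderm-like cells. The highest median among all pairs of members was 1.47, for Dlk1 with Peg10, which lie on different chromosomes. This ratio cannot exceed the inverse of the larger share, so it has little room to rise for genes found in nearly all cells. Medians of different pairs therefore do not show which genes occur together more often.

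The genes most like each member over the 44 sums were those with the highest Pearson r of log2 levels. The sums share libraries and lineages, so r is a description. For Meg3 and Peg3 the closest gene was an imprinted neighbour, Mirg (r = 0.947) and Usp29 (r = 0.897). Dlk1 was closest to Plac1, Triobp and Peg10 (0.871, 0.867 and 0.861), and Peg10 to Amot, Tbx3 and Igf2r (0.926, 0.908 and 0.879). H19 was closest to Slc25a4, Polg and P4ha1 (0.921, 0.915 and 0.902) and Igf2 to Adgra2, Nktr and Tmed2 (0.863, 0.822 and 0.793). Cdkn1c followed Tbx20, Igf2r and Nrp1 (0.839, 0.830 and 0.822) and Phlda2 followed Msx2, Zfp516 and Bmp4 (0.770, 0.766 and 0.762), Bmp4 being a gate marker of extraembryonic mesenchyme. Grb10 was closest to Ephb2, Isl1 and Cblb (0.810, 0.808 and 0.806) and Plagl1 to Col4a6, Rbms3 and Fndc3c1 (0.777, 0.727 and 0.713). Between partners, r was 0.782 for Igf2 with H19, 0.781 for Dlk1 with Meg3 and 0.496 for Cdkn1c with Phlda2.

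Of 31 other imprinted genes tested, 9 were higher and 10 lower in extraembryonic lineages (median 0.05), 6 were higher and 13 lower in extraembryonic endoderm (median -0.50), and 12 were higher and 3 lower in extraembryonic mesoderm (median 0.18), to be read against the shares of all genes given above. In mesoderm the largest changes were Mest, 2.36 higher, and the Dlk1-Meg3 domain genes Dio3, Rtl1 and Mirg, higher by 1.95, 1.80 and 1.49, while Nap1l5 fell by 1.40 and Airn was 1.34 higher. Extraembryonic endoderm had more Slc22a18 (2.30), Inpp5f (2.16) and Ddc (1.65) and less Ndn, Magel2 and Zim1, which fell by 2.21, 2.02 and 1.65. Across all lineages Nnat fell by 1.77 and Nap1l5 by 1.68, and Tspan32, 2.06 higher, had 694 and 222 UMIs in the erythroid-like sums of embryos 2 and 3 and 1 to 8 in each extraembryonic-endoderm-like sum.

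The IGF axis list holds ligands, receptors, binding proteins and signal carriers with which Igf2 acts. The type 2 receptor gene Igf2r was not on it but among the other imprinted genes. Igf2r was called higher by 0.83 across lineages, 1.16 in endoderm and 1.18 in mesoderm. Of the 16 genes of the IGF axis list tested, 5 were higher and 9 lower in extraembryonic lineages (median -0.34), 5 higher and 8 lower in extraembryonic endoderm (median -0.19), and 4 higher and 3 lower in extraembryonic mesoderm (median 0.02). Igfbp4, an IGF-binding protein, was higher by 1.04 across lineages, by 1.34 in endoderm and by 1.21 in mesoderm (log2). Igfbp2 and Igfbp3, further binding proteins, and Irs1, an adaptor of the receptors, fell by 1.44, 1.55 and 1.40 across lineages and by 2.56, 2.83 and 2.24 in endoderm. The receptor gene Igf1r fell by 1.85 in extraembryonic endoderm. Pappa, a protease of IGF-binding proteins, was 2.61 higher in extraembryonic endoderm, and in extraembryonic mesoderm it fell by 1.73. Igf1 was among the 8 genes called lower in extraembryonic endoderm. It had 0, 1 and 1 UMIs in extraembryonic-endoderm-like sums and 88, 50 and 14 in definitive-endoderm-like sums, so the size of its fold is not given.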

How the data were processed

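After removal of extraembryonic tissue, embryos were dissociated and profiled with the 10x 3′ v3 kit, and per the labels the authors processed the reads with Cell Ranger 3.1.0 on mm10. The deposited values are raw UMI counts per gene and barcode. Barcodes were kept with at least 1500 genes, at most 8500, 7500 and 8500 genes (embryos 1, 2 and 3) and 0.5% to 10% mitochondrial UMIs. Cells were gated by marker lists (score at least 0.75 and 0.25 ahead of the next list, with at least 3 markers, 2 for allantois, and a Dppa3 UMI for germ cells), and 5608 had no lineage. Scrublet (scanpy 1.11.5) called 5 doublets, too few to have worked, so none were removed and leaving out the 6% highest scores was an alternative. Sums of at least 10 cells were fitted with edgeR 4.0.16 (R 4.3.3; TMM, filterByExpr, quasi-likelihood test, Benjamini-Hochberg at 0.05). Sums of an embryo come from the same animal, so a fit with a block for the embryo was tried too. Deviations of such sums correlated across genes at 0.179 to 0.368 in the pairs of lineages examined, which were not all pairs. Further alternatives were DESeq2 1.42.0, library totals, no filter, other cell and gate limits, thinning to 5000 UMIs and leaving out an embryo in turn. On simulated data the 3 fits recovered 99.5%, 89.5% and 98.5% of 200 changed genes, with 4.33%, 3.76% and 6.19% of calls false. The simulated sums were drawn independently of each other, and only these 200 genes differed. In the real sums far more genes were called and sums of an embryo were correlated, so these rates need not hold there. Members are always named. Of the other imprinted genes and the IGF axis, those called with an absolute log2 fold change of at least 1 could be named, largest first and at most 6 per list and comparison, and per member the 3 genes of highest r. The values of Igf2r and the endoderm value of Igfbp4 are given beyond this limit. UMIs of Igf1 and Tspan32 were looked up after their fold changes were seen. The members, lists and gates were chosen with earlier results of these data known. Of 31054 identifiers, 31011 were found in GENCODE M21. The edgeR p-values rest on the spread between embryos within lineages, estimated over all sums together. The main fit had no term for the embryo, so it treated sums of the same embryo as independent. Exact permutation p-values rest on 3 embryos.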

Additional observations from a re-analysis of the deposited data

Results flagged for a closer look

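The difference between extraembryonic and embryonic cells was not the same in endoderm as in mesoderm for 7 of the 10 members, by a test of the difference of the 2 fold changes in the same edgeR fit (51.2% of all genes passed it). Values are the endoderm fold change less the mesoderm fold change (log2 ± SE). For Grb10 it was -1.92 ± 0.15 (adjusted p = 4.0e-14), with Grb10 lower in extraembryonic endoderm and slightly higher in extraembryonic mesoderm. Cdkn1c had -1.81 ± 0.28 (adjusted p = 7.0e-07) and Peg3 -1.41 ± 0.20 (adjusted p = 1.1e-07), both with opposite directions in the 2 germ layers. In the separate comparisons the Cdkn1c call in endoderm and the Grb10 call in mesoderm were each lost without embryo 2 or embryo 3. H19 had 1.02 ± 0.19 (adjusted p = 1.3e-05), being higher in both layers and more so in endoderm. Plagl1 had -0.92 ± 0.36 (adjusted p = 0.031), and this call was lost without any of the embryos. Meg3 had -0.52 ± 0.18 (adjusted p = 0.018) and Peg10 -0.48 ± 0.14 (adjusted p = 0.0055), both higher in both layers, and both calls were lost without embryo 3 (-0.51 with adjusted p = 0.069, and -0.43 with adjusted p = 0.092). Dlk1 did not pass (-0.50 ± 0.25, adjusted p = 0.092) but did with the embryo as a block (-0.49, adjusted p = 0.045), with library totals, with no filter and with stricter gates. Phlda2 did not pass (-0.26 ± 0.22, adjusted p = 0.32) but did with library totals (-0.55, adjusted p = 0.027) and with no filter, and Igf2 did not pass (-0.47 ± 0.36, adjusted p = 0.29).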

How the results depend on the processing

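Counts of genes called stayed within 1.5 times of the main count in every alternative run for the comparison across lineages, the endoderm comparison and their difference from mesoderm. In the mesoderm comparison 5045 genes became 3274 when cells were thinned before the sums, with 12059 instead of 14532 genes tested. With the embryo as a block the counts were 10163, 9744 and 6303 for the 3 comparisons, against 9618, 8796 and 5045, and no member's call changed in them. In the tests of a lineage against the others the block lost no call of a member and added 10. For H19 in erythroid-like cells the block gave -0.054, and leaving out an embryo gave -0.18 to 0.13 with the direction changing. Plagl1 in the mesoderm comparison went from 0.025 to -0.027 with thinned cells and ranged from -0.16 to 0.30 over the embryos left out, and Peg3 across lineages became 0.30 without erythroid-like sums; of these only the last was called. The median share of cells in the highest lineage was 99.1% as counted and 89.4% with thinned cells. Of 490 checks of a member's fold change in the 3 comparisons and their difference, 465 kept direction and call, 13 lost the call, 8 gained it and 4 changed direction. The 6 partner comparisons kept the direction of their mean difference in every alternative. For Cdkn1c to Phlda2 in mesoderm, only 2 of 3 embryos shared a sign in 3 of the alternatives. These were leaving out the highest doublet scores, stricter gates and thinned cells. With the pairing by embryo, each of the 6 had an exact permutation p = 0.25 on the main sums. Low counts limit Igf2 and Plagl1, and 3 embryos limit every order of lineages.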
